A study of Mus musculus with 42 samples.

Results

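The genes described here encode subunits of 2 proton-moving enzymes, the mitochondrial ATP synthase and the vacuolar ATPase (V-ATPase). ATP synthase sits in the inner mitochondrial membrane. Protons flowing back through its membrane part (Fo) turn a ring of c subunits and a central stalk, and that rotation drives ATP formation in the catalytic head (F1). V-ATPase has a related rotary build but works in reverse. Its cytosolic V1 part hydrolyses ATP, and its membrane part (V0) pumps protons into lysosomes, endosomes and secretory compartments. In liver and muscle, ATP synthase makes most of the cell's ATP from respiration, while V-ATPase keeps lysosomes acid and serves as a docking site for the mTORC1 kinase complex.

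Members were all genes on the array whose name starts with Atp5 or Atp6v. There were 38 of 27745 gene names, of which 16 fell to ATP synthase and 22 to V-ATPase. Each gene was read by its brightest probe. Among them, Atp5s (now Dmac2l, also called coupling factor B) is not a textbook subunit of the enzyme. The a3 subunit of V-ATPase carries another name (Tcirg1) and the ATP synthase subunits encoded by mitochondrial DNA were not found under the names searched, so none of these was a member.

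RNA was taken from liver, quadriceps muscle and visceral fat of female C57BL/6 mice, either wild type or heterozygous for a germline, whole-body disruption of Akt1 (Akt1+/-), which encodes a kinase of insulin and IGF1 signalling. The mice were 8 or 35 weeks old by the labels, while the study's methods state a higher age for the older group, and no other allele or agent was given. Each of the 12 groups held 3 arrays at 8 weeks or 4 at 35 weeks, giving 42 one-colour arrays, 14 per tissue. The comparisons were between the genotypes within each tissue, between the ages, and between tissues.

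All levels below are log2 intensities relative to the 75th percentile of the same array, so a difference of 1 is a doubling of signal for the same probe. A gene was called when limma's p, adjusted by the Benjamini-Hochberg method over all genes tested in that tissue, fell below 0.05. Counts at an unadjusted p below 0.05, or under another test or processing, come without the share of all genes. Such counts do not show whether members stood out from the whole array. The sources do not say whether arrays of a group came from separate animals or whether tissues came from the same animals, so p values measure only the spread between these arrays. As the samples were whole tissue, fewer cells of a type and less RNA per cell cannot be told apart.

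Akt1 itself was lower in Akt1+/- mice by 0.67 in liver, 0.58 in muscle and 0.56 in fat, that is at 0.628, 0.667 and 0.681 times the wild-type signal. This gave an exact two-sided permutation p of 0.001429 within ages in each tissue, the smallest that 1400 arrangements allow. Marker genes matched the labelled tissues. The summed level of 3 hepatocyte genes was 8.79 to 9.28 in liver and at most 1.19 elsewhere, 5 skeletal muscle genes gave at least 11.4 in muscle and at most 6.56 elsewhere, and 6 adipocyte genes gave at least 9.999 in fat and at most 8.27 elsewhere. Some arrays stood apart. The 1.19 for hepatocyte genes came from an Akt1+/- muscle array at 8 weeks, and the others of that group were at −4.81 and −3.97. Among the Akt1+/- livers at 8 weeks, replicates 1 and 3 held Mb (myoglobin), a skeletal muscle gene, at 0.68 and −1.15. It was at −6.80 to −6.50 in wild-type livers of that age. The summed level of the 5 skeletal muscle genes was −2.11 to 0.89 in that Akt1+/- group and −2.05 to −1.09 in the other livers. Replicates 1 and 3 owed most of their sum to Mb, so a wider skeletal muscle signal was not shown. The Akt1+/- fat samples at 35 weeks, replicates 3 and 4, held Ucp1, a brown fat gene, at 1.47 and 0.56. The summed level of 6 brown fat genes was 1.78 to 4.82 in that group and 2.0 to 4.12 in the other fat samples. Genotype could not be told apart from slide at 35 weeks in any tissue, nor at 8 weeks in liver. In fat at 35 weeks, it could not be told apart from the day of scanning either. At 8 weeks, wild-type fat replicates 1 and 2 were scanned on another day than all Akt1+/- fat arrays.

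The upstream sequences of 31 of the 38 genes were found in a RefSeq table (GRCm38.p6). Atp5a1, Atp6v0a2, Atp6v0d2, Atp6v1b2, Atp6v1c1, Atp6v1g1 and Atp6v1h had no entry in it. Shown are the 250 bases before the annotated start of Atp5h and Atp5k, the members that passed the test between genotypes in liver, and of Atp6v1a, the V-ATPase member that came nearest to passing. All 3 genes lie on the minus strand, at chr11:115419920-115420169, chr5:108434400-108434649 and chr16:44139260-44139509. The sequences read 5′ to 3′, and capitals mark matches on either strand to the NRF1 motif (GCGCA and GCGC with any 1 base between them), CCGGAAGT (an ETS motif) or TCACGTGA (the core of the CLEAR element).
Atp5h: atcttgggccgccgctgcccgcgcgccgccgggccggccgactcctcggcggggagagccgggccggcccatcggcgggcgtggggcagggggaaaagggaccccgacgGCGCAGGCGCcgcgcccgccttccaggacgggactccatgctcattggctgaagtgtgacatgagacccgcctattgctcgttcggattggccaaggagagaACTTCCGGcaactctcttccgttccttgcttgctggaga
Atp5k: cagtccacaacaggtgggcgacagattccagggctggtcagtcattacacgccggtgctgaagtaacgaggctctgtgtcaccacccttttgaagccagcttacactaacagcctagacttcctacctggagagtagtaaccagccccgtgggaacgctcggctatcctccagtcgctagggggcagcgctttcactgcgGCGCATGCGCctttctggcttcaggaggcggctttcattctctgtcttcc
Atp6v1a: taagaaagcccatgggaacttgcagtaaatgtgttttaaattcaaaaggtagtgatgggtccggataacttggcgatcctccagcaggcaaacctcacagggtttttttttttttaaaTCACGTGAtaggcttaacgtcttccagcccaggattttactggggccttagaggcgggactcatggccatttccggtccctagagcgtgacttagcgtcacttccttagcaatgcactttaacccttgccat

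Motifs were counted in the longer window of the table, which adds 50 bases after the start. NRF1 is a transcription factor known for genes of the respiratory chain. Its motif was present in 6 of 15 ATP synthase genes (Atp5c1, Atp5g2, Atp5g3, Atp5h, Atp5k and Atp5o), or 40.0%, in 2 of 16 V-ATPase genes, or 12.5%, and in 5.19% of the 27025 genes in the table. TFEB and its relatives bind CLEAR elements of lysosomal genes. The core TCACGTGA was present in 0 of 15 ATP synthase genes, in 3 of 16 V-ATPase genes (Atp6v0d1, Atp6v0e and Atp6v1a), or 18.8%, and in 1.12% of all genes. That core contains the plain E-box CACGTG, which was found in 4 of 15 ATP synthase genes, 4 of 16 V-ATPase genes and 8.09% of all genes. These counts describe letters in a window and were not tested.

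In the liver, all 16 ATP synthase genes had a lower mean in Akt1+/- mice than in wild-type mice. The median difference was −0.23, against 0.014 over the 17591 genes tested, and the members ranged from −0.36 (Atp5k) to −0.021 (Atp5s). Of the 16, 2 passed the test, Atp5h and Atp5k, where 5.83% of all genes tested were called, 2.38% lower. Another 9 members had an unadjusted p below 0.05. The two-way test of genotype and age that the study's methods name called 4 members lower.

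Atp5h encodes subunit d of the peripheral stalk, the arm that holds the catalytic head still while the rotor turns. In the livers at 8 weeks, its level was 6.73, 6.70 and 7.02 in wild-type mice and 6.49, 6.58 and 6.38 in Akt1+/- mice. At 35 weeks, it was 6.73, 6.91, 6.93 and 6.94 in wild-type mice and 6.50, 6.65, 6.62 and 6.57 in Akt1+/- mice. No Akt1+/- array reached the lowest wild-type array of its age. Atp5h fell by 0.31 (SE 0.071, limma adjusted p = 0.0295), to 0.807 times the wild-type signal. Its other probe differed by −0.13, and with the mean of both probes the difference was −0.22 and not called (limma adjusted p = 0.137).

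Atp5k encodes subunit e, a small membrane subunit involved in pairing ATP synthase complexes into dimers. At 8 weeks, its level was 4.77, 4.85 and 5.15 in wild-type livers and 4.56, 4.42 and 4.47 in Akt1+/- livers, with no overlap. In the older mice, it was 4.66, 4.91, 4.93 and 4.90 in wild-type against 4.50, 4.77, 4.54 and 4.48 in Akt1+/- livers. There the groups overlapped, because 1 wild-type array lay below 1 Akt1+/- array. Atp5k fell by 0.36 (SE 0.082, limma adjusted p = 0.0292), to 0.780 times wild type. Both calls were near the threshold. With the replicate number as a block, the adjusted p was 0.0634 for Atp5h and 0.0511 for Atp5k, and with slide as a random block 0.0678 and 0.0660. Without the 2 livers that held Mb, the median of the 16 genes was −0.22 and all 16 were still lower. None was called, with limma adjusted p values of 0.109 for Atp5h and 0.0593 for Atp5k. Leaving out single arrays gave between 0 and 6 called genes. None was called without wild-type replicate 2 or 3 or Akt1+/- replicate 3 at 8 weeks, or without wild-type replicate 2, 3 or 4 or Akt1+/- replicate 1 or 4 at 35 weeks. There was 1 without Akt1+/- replicate 3 and 6 without wild-type replicate 1 at 35 weeks.

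**Figure D1:**
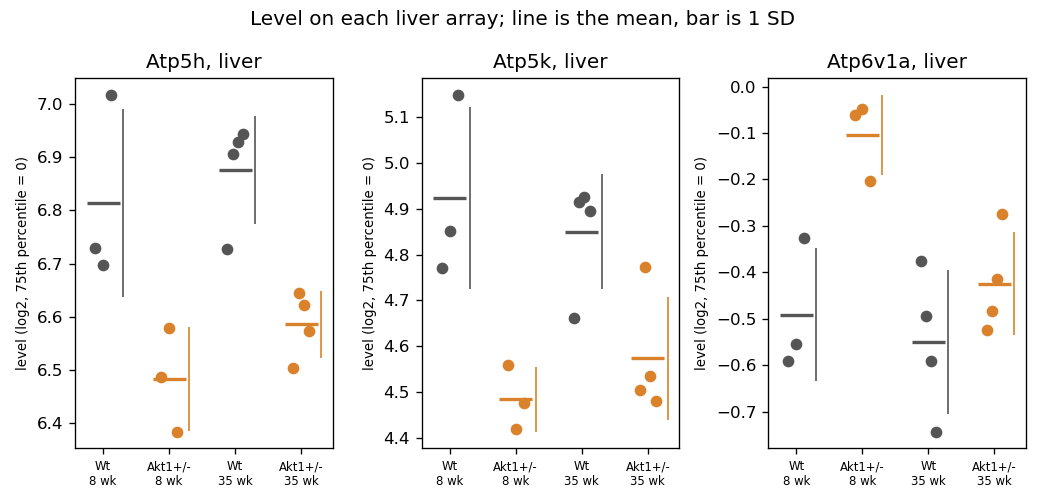
Level of Atp5h, Atp5k and Atp6v1a on each liver array (log2 intensity relative to the array's 75th percentile), by genotype and age, with 1 point per array, a horizontal line at the group mean and a vertical bar of 1 SD to either side. All Akt1+/- arrays lie below the wild-type arrays of their age for Atp5h, 1 wild-type array at 35 weeks (4.66) overlaps for Atp5k, and Atp6v1a is higher in Akt1+/- arrays at 8 weeks and overlaps at 35 weeks.

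The rest of the ATP synthase group is given by part of the enzyme, with none past the test. The catalytic head and central stalk comprise Atp5a1 and Atp5b (α and β, which together bind the nucleotides) and Atp5c1, Atp5d and Atp5e (γ, δ and ε). Their differences were −0.15, −0.16, −0.27, −0.22 and −0.27. Of the 3 genes that encode an identical mature c subunit for the ring, Atp5g2 differed by −0.27 (limma adjusted p = 0.0540), Atp5g1 by −0.21 and Atp5g3 by −0.083. The other peripheral stalk genes are Atp5f1 (subunit b, now Atp5pb), Atp5j (coupling factor 6) and Atp5o (the oligomycin sensitivity-conferring protein), and they differed by −0.17, −0.24 and −0.17. Atp5j2 and Atp5l, for the small membrane subunits f and g, differed by −0.23 and −0.24.

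At 8 weeks, 11 of the 16 genes had every Akt1+/- array below every wild-type array, where 14.2% of all genes did. At 35 weeks, this was so for 4 genes (Atp5c1, Atp5f1, Atp5g1 and Atp5h), where 3.6% of all genes did. Both ages held for 3 genes (Atp5c1, Atp5g1 and Atp5h), where 1.22% of all genes did. The test of whether the genotype difference changed with age called none of the 16 in limma or in the two-way test, where limma called 0.495% of all genes, and none of the 16 had an unadjusted p below 0.05 in limma. Marker lists of other cells also had the genotypes apart in the livers of 8 weeks. The summed level of 7 macrophage genes was 5.82 to 6.15 in wild-type against 6.39 to 6.70 in Akt1+/- livers, and that of 6 lymphocyte genes was 0.89 to 1.2 against 1.59 to 1.67. No gene of either list was called at that age, both lists overlapped between genotypes at 35 weeks, and their part in the result was not tested.

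The genotype differences in liver followed the brightness of the probe over the whole array. The dimmest decile of genes had a median difference of 0.29 and the brightest decile of −0.13, with 79.2% of genes lower in that decile. Of the ATP synthase genes, 15 lay in the brightest decile, with a median of −0.23. Of the V-ATPase genes, 4 lay in the same decile, with a median of 0.056. Quantile normalization, which forces all arrays to share 1 distribution, moved the ATP synthase median to −0.064, with 11 of 16 genes lower and 5 higher and none called. Scaling each array to its median moved it to −0.36, with all 16 lower and 13 called, but it moved the median of all genes to −0.11 as well. Relative to all genes, the members stood at −0.24 under both scalings by a single factor. That equality is fixed by arithmetic, as each scaling subtracts 1 number per array, and is no check of the result.

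**Figure D2:**
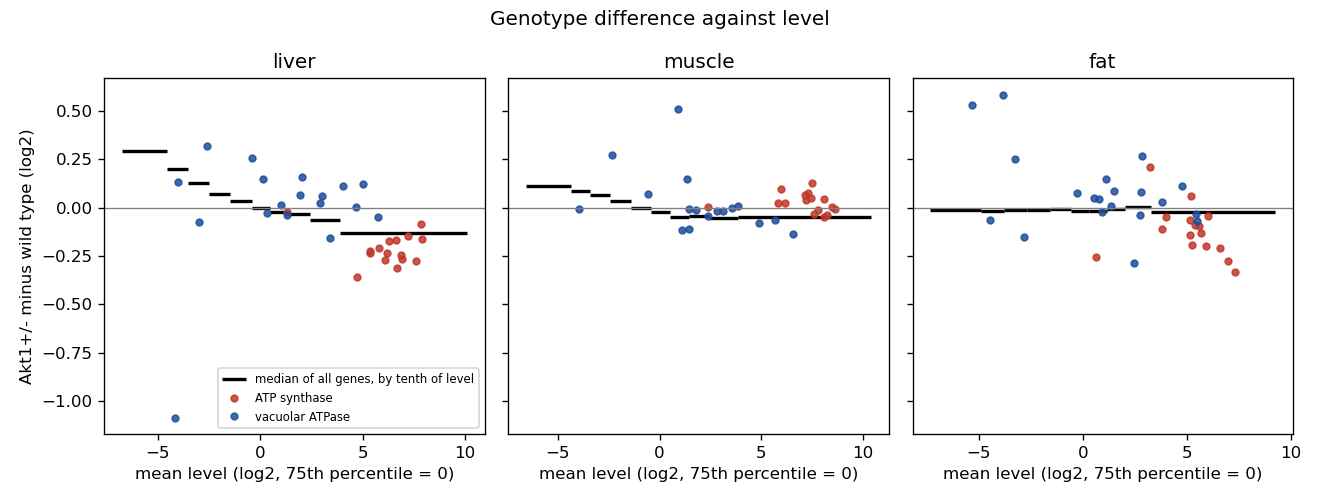
Genotype difference (Akt1+/- minus wild type, log2) against mean level (log2 intensity relative to the array's 75th percentile) for each member in liver, muscle and fat, with black lines at the median of each decile of all genes tested. In liver the lines run from 0.29 at the dim end to −0.13 at the bright end, and the bright ATP synthase genes lie below the last line except Atp5g3 (−0.083), while the V-ATPase genes lie on both sides.

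Other genes of oxidative phosphorylation also had lower means in these livers. These are to be read against the 2.38% of all genes called lower and the median of −0.13 in the brightest decile. Of 38 complex I genes, 35 had a lower mean and 4 were called lower, with a median of −0.20. For cytochrome c oxidase, 3 of 15 were called lower (median −0.20). For complex III, 3 of 7 were called lower (median −0.30), and for complex II, 1 of 4 (median −0.17). The 6 measured genes for assembly factors, regulators and associated subunits of ATP synthase were all lower, with a median of −0.076 and none called.

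None of the 18 V-ATPase genes tested in the liver was called between genotypes by limma or by the two-way test, and 3 had an unadjusted p below 0.05 in limma. Higher means were found for 12 and lower means for 6, with a median of 0.042. Median scaling gave 5 higher and 13 lower (median −0.085). The V-ATPase accessory and assembly genes (8 genes, median 0.017) and the lysosome genes (9 genes, median −0.077) held no call either.

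Atp6v1a encodes the catalytic A subunit of V1. At 8 weeks, its level was −0.59, −0.55 and −0.33 in wild-type livers and −0.06, −0.05 and −0.20 in Akt1+/- livers. The levels at 35 weeks were −0.38, −0.49, −0.59 and −0.74 in wild-type against −0.52, −0.48, −0.41 and −0.27 in Akt1+/- livers. The groups were apart at 8 weeks and overlapped at 35 weeks, and the difference of 0.26 (SE 0.078) had a limma adjusted p of 0.0683. Atp6v0d2, an alternative d subunit of V0 known from kidney and osteoclasts, differed by −1.09 (SE 0.39, limma adjusted p = 0.109). It was dim, well above background on 12 of 14 liver arrays.

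Atp6v1g2, an isoform of the stalk subunit G known mainly from neurons, separated the genotypes at the older age. In livers at 8 weeks, it was at −3.1, −3.03 and −2.62 in wild-type against −2.94, −2.84 and −3.28 in Akt1+/- mice. At 35 weeks, it was at −2.50, −2.72, −2.77 and −2.88 in wild-type against −1.87, −1.97, −2.06 and −2.0 in Akt1+/- mice. The groups overlapped at 8 weeks, and at 35 weeks every Akt1+/- liver was above every wild-type liver, as for 8.99% of all genes. The genotype difference at 35 weeks was 0.74 (SE 0.13, limma adjusted p = 0.0105, where 3.1% of all genes were called higher). It was called without any single array, but not with the mean of probes (0.46, limma adjusted p = 0.0593). Over both ages, it was 0.32 (limma adjusted p = 0.0735), and the change of the genotype difference with age had a limma adjusted p of 0.091.

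In muscle at 35 weeks, Atp6v1g2 was at −2.30, −2.39, −2.48 and −2.46 in wild-type against −1.65, −1.93, −2.05 and −1.99 in Akt1+/- mice. In fat at that age, it was at −2.83, −2.75, −2.72 and −2.87 in wild-type against −3.00, −3.13, −2.88 and −2.96 in Akt1+/- mice. The groups did not overlap in either tissue, with Akt1+/- arrays above in muscle and below in fat. The same held, in that direction, for 3.75% of all genes in muscle and 5.5% in fat. Neither difference passed the test (0.50, limma adjusted p = 0.224, and −0.20, limma adjusted p = 0.381), where 0.105% of genes were called at that age in muscle and 1.68% in fat. With the replicate number as a block, the value in muscle was called (limma adjusted p = 0.0442). The genotype difference over both ages was smaller in fat than in liver by 0.47 (SE 0.13, limma adjusted p = 0.0318). This call was lost with slide as a random block, quantile normalization (with or without normexp), median scaling and the mean of probes, where the values lay between −0.48 and −0.21. A dimmer probe for this gene gave differences at 35 weeks of 0.18 for liver, −0.046 for muscle and 0.0079 for fat.

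Atp6v1e2, an isoform of the stalk subunit E known from testis, was likewise higher in Akt1+/- livers at 35 weeks. There it was at −4.09, −4.34, −4.17 and −3.97 in wild-type against −3.38, −3.53, −3.72 and −3.67 in Akt1+/- mice. The groups did not overlap, as for 8.99% of all genes in that direction, and the difference was 0.57 (SE 0.14, limma adjusted p = 0.0422). With single arrays left out, it was called in 3 of 14 fits. The call was also lost with the replicate number as a block (limma adjusted p = 0.0812), slide as a random block, the two-way test, no filter or a stricter one, median scaling (0.40) and quantile normalization (0.39, and 0.092 with normexp). At 8 weeks, the difference was −0.30 and not called, where 2.11% of all genes were.

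**Figure D3:**
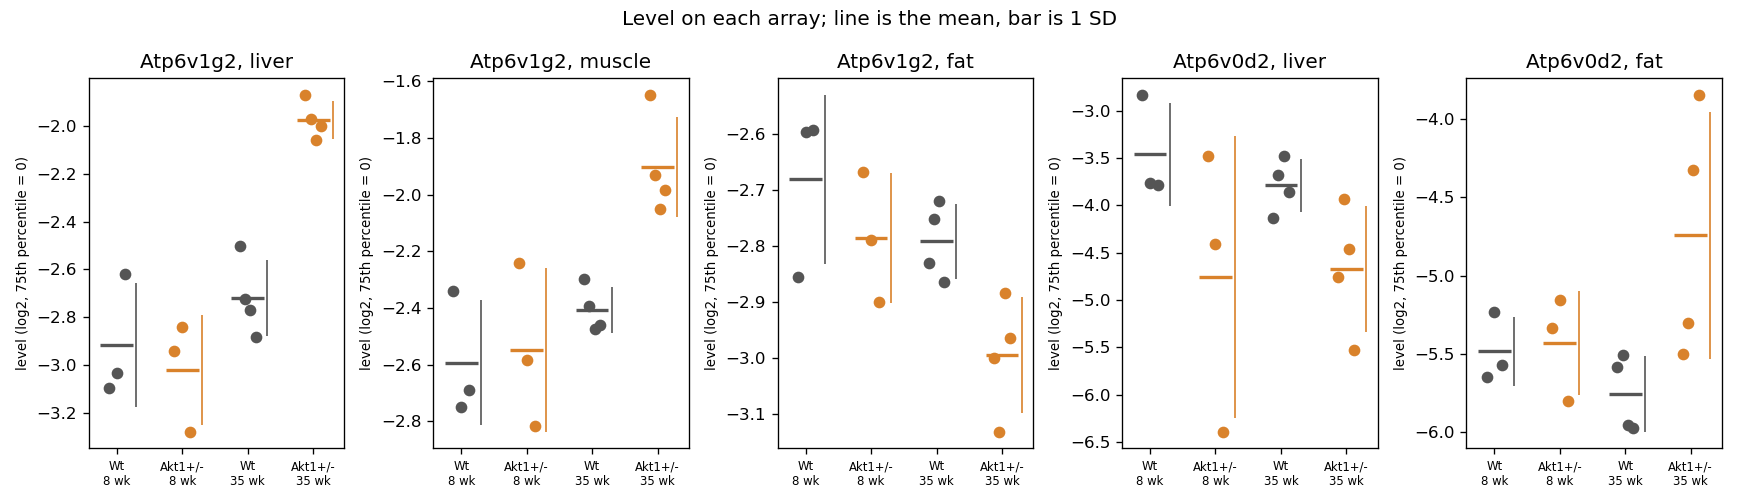
Levels of Atp6v1g2 in 3 tissues and of Atp6v0d2 in liver and fat on each array (log2 intensity relative to the array's 75th percentile), with 1 point per array, a horizontal line at the group mean and a vertical bar of 1 SD to either side. Atp6v1g2 separates the genotypes at 35 weeks in all 3 tissues, upwards in liver and muscle and downwards in fat. In those directions, 8.99% of all genes did so in liver, 3.75% in muscle and 5.5% in fat. Atp6v0d2 in fat is highest on 2 Akt1+/- arrays at 35 weeks (−4.32 and −3.85).

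In skeletal muscle, no member of either enzyme was called between genotypes. None of the 16 ATP synthase genes and none of the 17 V-ATPase genes tested was called by limma or by the two-way test, where 0.0% of all 17209 genes were called by limma. No ATP synthase gene and 4 V-ATPase genes had an unadjusted p below 0.05. The ATP synthase differences ran from −0.050 to 0.13, with 11 higher and 5 lower and a median of 0.023. This slight shift upwards turned to −0.054 with median scaling and to −0.020 without the third Akt1+/- replicate at 35 weeks. On the 1 slide that held both genotypes at 8 weeks, with 3 arrays of wild type and 1 of Akt1+/-, the median was 0.086, with 2 of 16 lower.

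The V-ATPase genes with an unadjusted p below 0.05 in muscle were Atp6v1b2, Atp6v1g2, Atp6v1c1 and Atp6v0c. Atp6v1b2, the common B subunit of V1, was at 0.41, 0.66 and 0.54 in wild-type against 0.94, 1.04 and 2.05 in Akt1+/- muscle at 8 weeks. In the older mice, it was 0.31, 0.62, 1.32 and 0.78 in wild-type against 1.18, 0.66, 1.10 and 0.95 in Akt1+/- muscle. The difference of 0.51 (SE 0.19, limma adjusted p = 0.205) drew on 1 array at 2.05, and the groups overlapped at 35 weeks. Atp6v1c1, the C subunit that joins V1 to V0, had every Akt1+/- array below every wild-type array at both ages, where 0.418% of all genes did. Its difference was small, at −0.12 (SE 0.044, limma adjusted p = 0.206). Marker lists of other cells also had the genotypes apart in muscle of 8 weeks. In wild-type against Akt1+/- arrays, summed adipocyte genes were at 7.19 to 7.445 and 7.51 to 8.22. Macrophage genes were at 4.60 to 5.61 and 5.62 to 6.14, and lymphocyte genes at −1.16 to −0.65 and −0.40 to −0.22. Red blood cell genes were lower, at 7.13 to 7.63 and 6.55 to 6.80. These lists overlapped at 35 weeks. Among single genes, 8.55% had every Akt1+/- muscle array higher at 8 weeks and 14.8% lower. The part of the lists in the results was not tested.

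In visceral fat, 14 of 16 ATP synthase genes had a lower mean in Akt1+/- mice, with a median of −0.12 against −0.012 over the 18432 genes tested. None was called by limma or the two-way test, where limma called 0.781% of all genes. An unadjusted p below 0.05 was found for 4 genes, Atp5a1, Atp5b, Atp5c1 and Atp5s. At 8 weeks, the median was −0.23 with 14 genes lower, and at 35 weeks 0.0020 with 8 lower and 8 higher. The change with age was not called for any member of either enzyme by limma or the two-way test, where limma called 1.48% of all genes and 5 of the 36 members had an unadjusted p below 0.05.

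Atp5b, the catalytic β subunit, had the lowest p of the group. In fat at 8 weeks, it was at 6.98, 7.59 and 7.61 in wild-type against 6.99, 6.96 and 7.31 in Akt1+/- mice. The levels at 35 weeks were 7.48, 7.58, 7.58 and 7.53 in wild-type against 6.91, 7.25, 7.22 and 7.36 in Akt1+/- mice. The groups were apart at 35 weeks, where 5.5% of all genes had every Akt1+/- array lower. They overlapped at 8 weeks, where the first wild-type array was as low as the Akt1+/- arrays. The difference was −0.33 (SE 0.11, limma adjusted p = 0.153). Without that wild-type array, the median of the 16 genes was −0.20, and 1 was called, Atp5b at −0.44. The summed level of 6 adipocyte genes was 10.2 to 10.6 in wild-type and 10.3 to 10.4 in Akt1+/- fat at 8 weeks. At 35 weeks it was 10.4 to 10.6 and 9.999 to 10.3, without overlap. For 5 skeletal muscle genes, the summed level was 4.87 to 6.56 in wild-type and 3.85 to 5.24 in Akt1+/- fat at 8 weeks. It was 4.59 to 5.74 and 4.31 to 6.35 at 35 weeks. At 8 weeks, lymphocyte genes were apart, at 1.43 to 1.59 in wild-type and 1.64 to 2.04 in Akt1+/- fat. Pancreas genes were apart the other way, at 2.27 to 2.54 and 1.82 to 1.996. Both overlapped at 35 weeks. Among single genes, 11.9% had every Akt1+/- fat array higher at 8 weeks and 15.2% lower. The part of any of these lists in the results was not tested. On the 1 slide that held both genotypes at 8 weeks (1 wild-type and 3 Akt1+/- arrays), the median was −0.36, with 15 of 16 lower.

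Of the 20 V-ATPase genes tested in fat, 13 had a higher mean and 7 a lower one, with a median of 0.045. None was called by limma or the two-way test, and 4 had an unadjusted p below 0.05 in limma. Without the 2 fat samples that held Ucp1, the median was −0.032 and only 6 of the 20 were higher. Atp6v0a4, the a4 subunit known from acid-secreting kidney cells, was at −4.05, −4.39 and −4.20 in wild-type against −3.45, −3.70 and −3.20 in Akt1+/- fat at 8 weeks. At 35 weeks, it was at −3.83, −4.24, −4.11 and −3.88 in wild-type against −3.81, −3.23, −4.12 and −3.27 in Akt1+/- fat. The groups were apart only at 8 weeks, where 11.9% of all genes had every Akt1+/- array higher. The difference was 0.58 (SE 0.15, limma adjusted p = 0.0865). A list of epithelial genes had been chosen for ducts of kidney, epididymis and uterus. Of its 3 tested genes, 2 were called higher in Akt1+/- fat at 8 weeks, where 0.841% of all genes were. None was called over both ages, where the median difference was 0.77. With Pax8 added, the summed level of the list at 8 weeks was 1.76 to 2.69 in wild-type and 3.1 to 3.79 in Akt1+/- fat, and at 35 weeks 2.78 to 3.15 and 2.89 to 3.34. In liver the list was at 7.03 to 7.48, so it is not particular to those ducts. Pax8 was not well above background on any fat array, and the part of epithelial cells in the result was not tested.

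Atp6v0d2 was the member whose genotype difference varied most between fat and liver. In livers at 8 weeks, it was at −2.84, −3.76 and −3.79 in wild-type against −3.48, −4.40 and −6.39 in Akt1+/- mice. In the older mice, it was −4.14, −3.68, −3.48 and −3.86 in wild-type livers and −4.76, −3.94, −4.46 and −5.52 in Akt1+/- livers. Akt1+/- livers were mostly lower, with some overlap at both ages.

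In fat at 8 weeks, Atp6v0d2 was at −5.65, −5.23 and −5.57 in wild-type against −5.33, −5.16 and −5.80 in Akt1+/- mice. The levels at 35 weeks were −5.58, −5.51, −5.95 and −5.97 in wild-type fat and −5.50, −5.30, −4.32 and −3.85 in Akt1+/- fat. The groups overlapped at 8 weeks and not at 35 weeks, where 4.33% of all genes had every Akt1+/- array higher. The difference in fat was 0.53, and it was 1.62 above that in liver (SE 0.43, limma adjusted p = 0.0254, where 1.48% of 19992 genes were called in that direction). The probe was well above background on 9 of 14 fat arrays, and with slide as a random block the limma adjusted p was 0.0578. The 2 highest fat arrays were those that held Ucp1, and Trem2, a gene of lipid-laden macrophages, was at 3.50 and 4.40 on them and at 1.01 to 3.35 on the other fat arrays. The summed level of 4 genes of osteoclasts and lipid-laden macrophages was 4.53 to 5.58 in Akt1+/- and 4.68 to 4.98 in wild-type fat at 35 weeks, and the part of such cells in the result was not tested. Without those 2 fat arrays, the difference between tissues was 1.29 (limma adjusted p = 0.0800).

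No ATP synthase gene passed this test of the genotype difference between tissues. For muscle against liver, the differences ran from 0.023 to 0.46 and 9 of 16 had an unadjusted p below 0.05. For fat against liver, this was so for 3, and for muscle against fat, for 4. Limma called none of the 16 in any of these comparisons, where it called 0.95%, 4.19% and 0.755% of all genes. The lower ATP synthase levels of Akt1+/- livers were therefore not shown to differ from the values in muscle or fat.

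**Figure D4:**
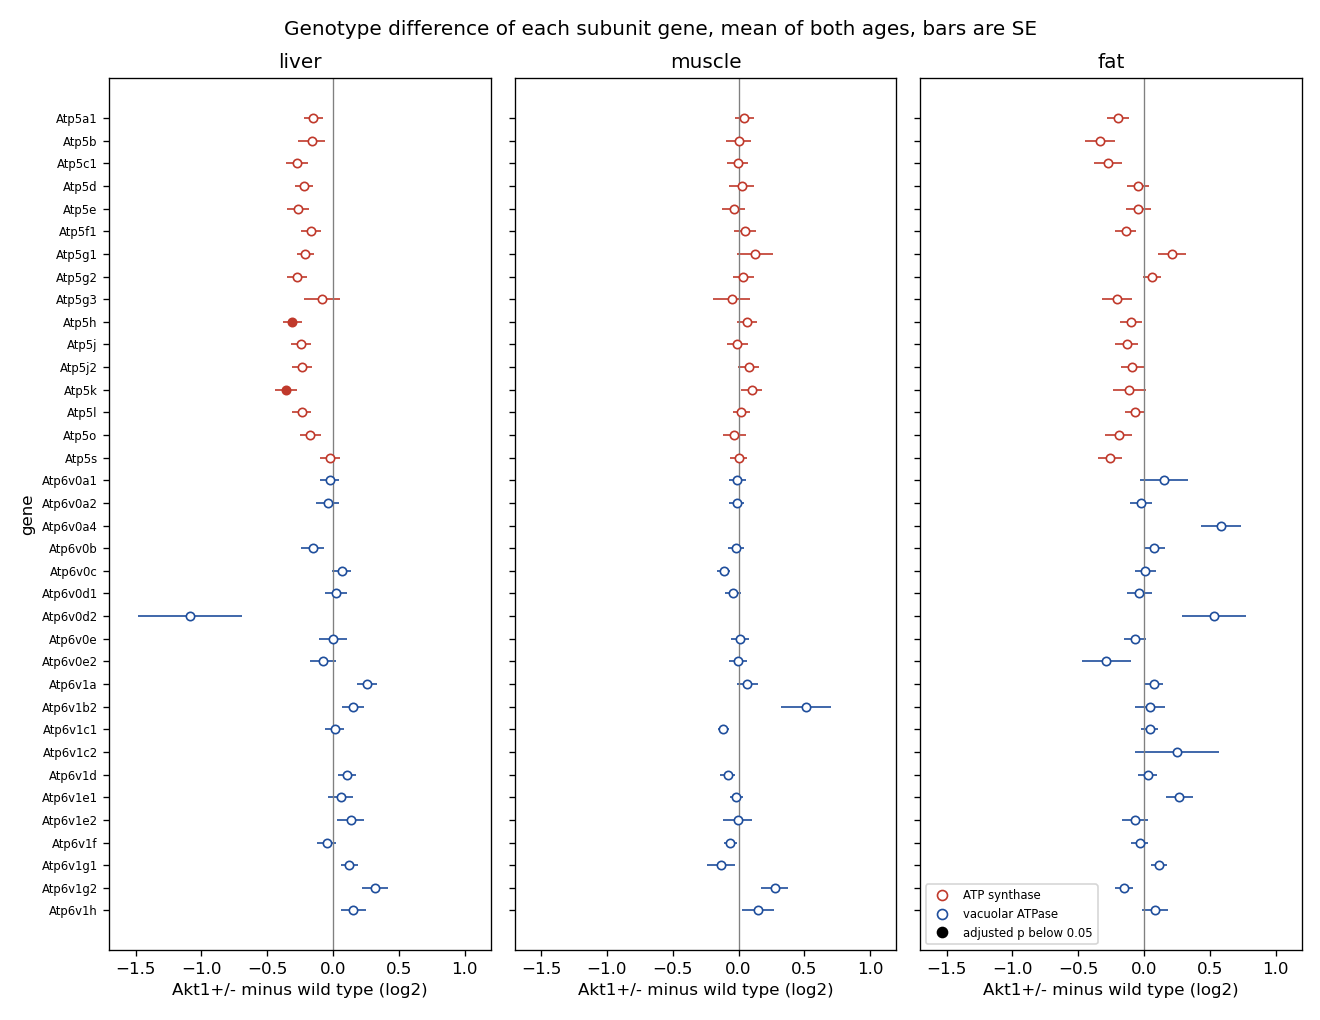
Genotype difference (Akt1+/- minus wild type, log2) of each member in liver, muscle and fat over both ages, with bars of 1 SE, the enzymes in different colours and filled points for genes that were called. The 16 ATP synthase genes lie left of 0 in liver, within −0.050 and 0.13 in muscle and mostly left of 0 in fat, and only Atp5h and Atp5k in liver passed the test.

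Members of both enzymes were called between the ages in each tissue. In liver, 3 of 16 ATP synthase genes and 3 of 18 V-ATPase genes were called, where 34.6% of all genes were. In muscle, 1 of 16 and 3 of 17 were called, where 30.9% of all genes were. In fat, 2 of 16 and 2 of 20 were called, where 19.1% of all genes were. Age could not be told apart from the day on which the arrays were scanned.

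In the older livers, Atp5d and Atp5e, for the δ and ε subunits of the central stalk, fell by 0.29 (limma adjusted p = 0.00679) and by 0.32 (limma adjusted p = 0.0119). Atp5d was at 5.57, 5.68 and 5.66 in wild-type against 5.46, 5.31 and 5.46 in Akt1+/- livers at 8 weeks. At 35 weeks, it was at 5.16, 5.30, 5.38 and 5.55 in wild-type against 5.07, 5.19, 5.12 and 5.12 in Akt1+/- livers. Within each genotype, the older arrays lay below the younger ones. Atp5s rose by 0.22 (limma adjusted p = 0.0458). Without the livers that held Mb, none of the 3 was called. The rise of Atp5s was also lost with median scaling (0.019), no filter, the replicate or slide block and 12 of 14 single arrays left out, and the fall of Atp5d with normexp and quantile normalization (−0.15).

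Among V-ATPase genes in liver, Atp6v0b, the c″ subunit of the proton-carrying ring, fell by 0.35 (limma adjusted p = 0.00768). It was at 3.51, 3.60 and 4.01 in wild-type against 3.45, 3.52 and 3.55 in Akt1+/- livers at 8 weeks. In the older mice, it was 3.19, 3.21, 3.40 and 3.43 in wild-type against 3.33, 3.16, 3.14 and 3.17 in Akt1+/- livers. Again no older array reached the younger ones of its genotype. Atp6v1g2 rose by 0.62 (limma adjusted p = 0.000634) and Atp6v1e2 by 0.41 (limma adjusted p = 0.00972). For these isoforms, the difference between age means was 1.04 and 0.85 in Akt1+/- livers and 0.20 and −0.024 in wild-type livers, a contrast that did not pass the test (limma adjusted p = 0.091 and 0.095). The rise of Atp6v1e2 was not called under median scaling (0.21) or quantile normalization (0.19, and 0.057 with normexp). Nor was it called without the livers that held Mb (0.23). Of the 8 accessory and assembly genes of V-ATPase, 4 fell, among them Ccdc115, Wdr7 and Tcirg1, and 1 rose.

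In older muscle, Atp5k rose by 0.25 (limma adjusted p = 0.0359), a call lost with 1 fit over all arrays, either quantile normalization, median scaling, no filter, the replicate block and 7 of the 14 single arrays left out. Atp6v0a2, an a subunit of V0 known from endosomes, rose by 0.26 (limma adjusted p = 0.00409), and Atp6v1g2 rose by 0.42 (limma adjusted p = 0.00961). With the mean of its probes, Atp6v1g2 differed by 0.078 and was not called. Atp6v1e1, the common E subunit, fell by 0.17 (limma adjusted p = 0.0207). A list of 8 genes of slow and oxidative fibres was at a summed level of 9.73 to 10.5 in wild-type and 10.4 to 10.6 in Akt1+/- muscle of 8 weeks. It was at 10.7 to 11 in all muscle of 35 weeks. A list of fast glycolytic fibre genes was also higher in older muscle. It went from 11.74 to 11.92 up to 11.98 to 12.05 in wild-type mice, and from 11.52 to 11.75 up to 11.83 to 11.93 in Akt1+/- mice. The part of either list in these results was not tested. Atpif1, the inhibitor that blocks ATP synthase from running backwards, rose by 0.32 (limma adjusted p = 0.00815).

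In older fat, 15 of 16 ATP synthase genes had a higher mean, with a median of 0.18, and 2 were called. Atp5h rose by 0.26 (limma adjusted p = 0.0451) and Atp5j2 by 0.33 (limma adjusted p = 0.0198). With the mean of its probes, Atp5j2 differed by 0.14 and was not called, and Atp5h was not called with median scaling, no filter, the replicate block or 12 of 14 single arrays left out. Atp5j2 was at 5.01, 5.49 and 5.49 in wild-type against 5.09, 5.08 and 5.14 in Akt1+/- fat at 8 weeks. The levels at 35 weeks were 5.52, 5.54, 5.51 and 5.53 in wild-type against 5.33, 5.68, 5.61 and 5.66 in Akt1+/- fat. All older arrays of each genotype were above the younger ones, and the first wild-type array of 8 weeks was again among the lowest. Of the 6 assembly and associated genes of ATP synthase, 4 rose, among them Usmg5 (DAPIT, a membrane subunit) by 0.41 and Tmem70, an assembly factor, by 0.30. Without the 2 fat samples that held Ucp1, no ATP synthase gene was called for age.

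Among V-ATPase genes in fat, Atp6v0e2 rose by 0.73 (limma adjusted p = 0.0170) and Atp6v1c1 fell by 0.24 (limma adjusted p = 0.0220). The first was not called without the arrays with Ucp1 (0.67, limma adjusted p = 0.0668), and the second not with normexp and quantile normalization (−0.17). Atp6v0e2, an isoform of the small e subunit, was at 1.73, 2.78 and 2.67 in wild-type against 1.80, 1.60 and 1.56 in Akt1+/- fat at 8 weeks. At 35 weeks, it was at 2.61, 2.9, 2.14 and 3.04 in wild-type against 2.46, 2.98, 2.97 and 2.95 in Akt1+/- fat. In wild-type fat the ages overlapped, and in Akt1+/- fat they did not.

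The tissues set the members apart far more than genotype or age did. All 16 ATP synthase genes were called in each pair of tissues, where 85.8% of the 19992 genes tested were called for muscle against liver, 86.3% for fat against liver and 87.6% for muscle against fat. The order was muscle above liver above fat for every one, with median differences of 0.94 for muscle against liver, −1.03 for fat against liver and 1.96 for muscle against fat. The step from liver to fat depended on scaling. With quantile normalization 10 genes were called lower and 4 higher in fat, and with normexp and quantile normalization 11 and 4, whereas the means in muscle stayed above those in liver and fat for all 16 under both. The call of Atp5g3 for muscle against liver (0.22) was lost with quantile normalization (0.037), median scaling, no filter, slide as a random block, wild-type arrays only and 11 of 42 single arrays left out.

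Atp5g1 differed most between tissues. Its lowest, median and highest levels over 14 arrays were 5.56, 5.77 and 5.98 for liver, 7.27, 7.44 and 8.25 for muscle and 2.88, 3.22 and 3.65 for fat. No array of 1 tissue overlapped with those of another. Atp5g1 was higher in muscle than in liver by 1.70 and than in fat by 4.24. Atp5g2, which encodes the same mature c subunit, was higher in muscle by 1.09 and 2.01. Atp5g3, the third gene of that kind, was higher in muscle by 0.22 and 1.48, and its range in liver (7.16 to 8.22) overlapped with that in muscle (7.55 to 8.40).

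**Figure D5:**
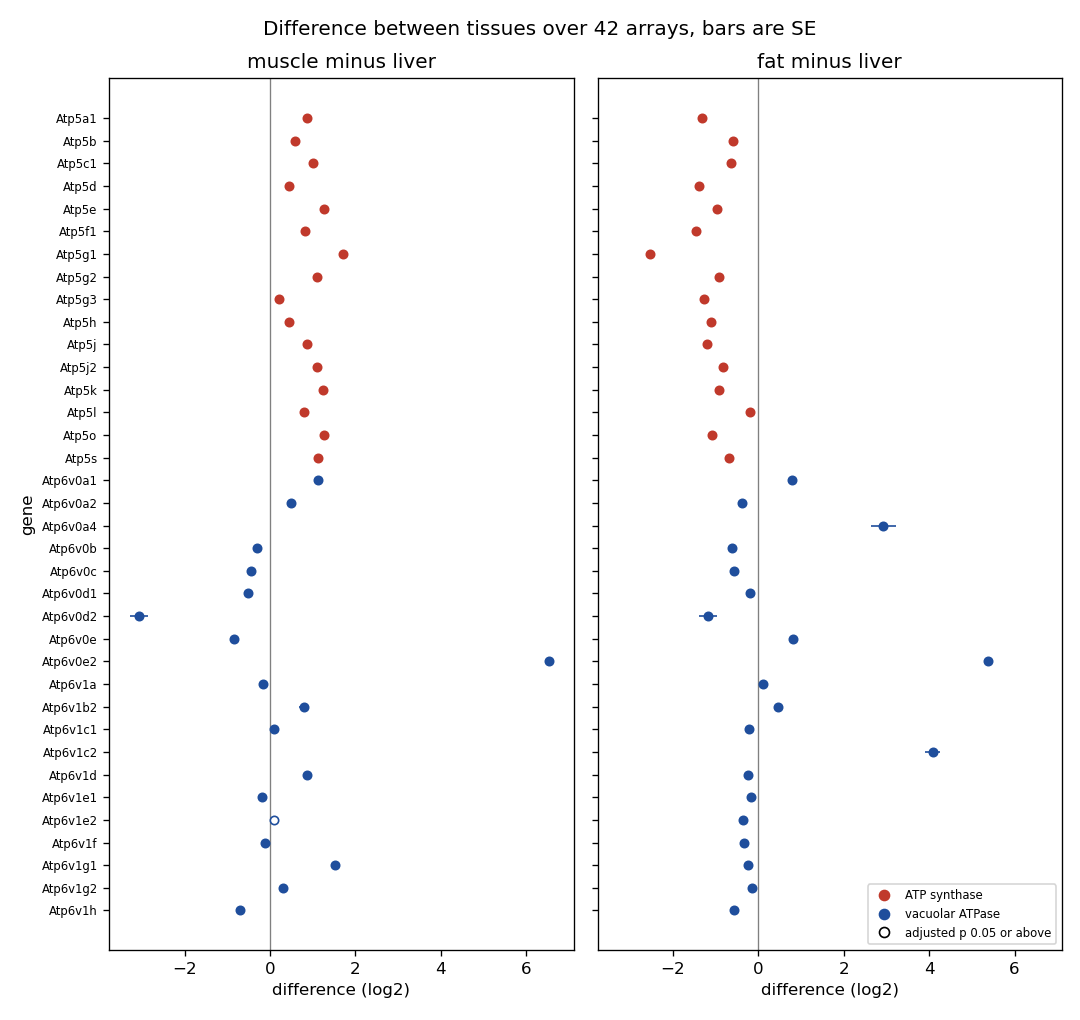
Difference between tissues (log2) for each member, muscle minus liver and fat minus liver, with bars of 1 SE, the 2 enzymes in different colours and open points for genes that were not called. Genes that passed the filter on dim probes in neither tissue have no point, and ATP synthase genes all lie above 0 for muscle minus liver and below 0 for fat minus liver, while V-ATPase genes lie on both sides, with Atp6v0e2 at 6.52 and 5.37.

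V-ATPase genes had no common order of tissues. For muscle against liver, 9 of 20 were called higher and 9 lower, where 45.0% and 40.8% of all genes were. Of the 20, Atp6v0a4 and Atp6v1c2 passed the filter on dim probes in neither of those tissues, and without them 8 of 18 were called higher and 9 lower. For fat against liver, 7 were called higher and 13 lower, where 40.6% and 45.7% were, and with quantile normalization 12 higher and 7 lower. For muscle against fat, 12 were called higher and 6 lower, where 44.8% and 42.7% were, and with quantile normalization 7 and 9. Some of these calls rest on probes that passed the filter in fat only. Those are Atp6v0a4 and Atp6v1c2 among the calls higher in fat than in liver or muscle, and Atp6v0d2 between fat and muscle. With the dimmest detected probes as floor, Atp6v0d2 in fat was at least −0.035 above muscle, so no difference was shown. The median difference for muscle against liver was 0.096 over the 20 and −0.013 over the 18. For fat against liver and muscle against fat, the medians were −0.20 and 0.27, and both changed sign with quantile normalization, to 0.22 and −0.062.

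The largest tissue differences belonged to subunits that exist in several isoforms. Atp6v0e2 had lowest, median and highest levels of −3.49, −2.97 and −2.69 for liver, 3.25, 3.52 and 3.69 for muscle and 1.56, 2.64 and 3.04 for fat. It was higher than in liver by 6.52 in muscle and by 5.37 in fat, without overlap. Atp6v0e, the other gene for the e subunit, was lower in muscle than in liver by 0.84 with its brightest probe, but its dimmer probe gave 0.65 and the mean of both was not called. In fat it was higher than in liver by 0.82. Atp6v1c2, an isoform of the C subunit, was well above background on all 14 fat arrays and on no liver or muscle array. It was at least 3.88-fold higher in fat than in liver and at least 4.17-fold higher than in muscle, taking the dimmest detected probes of each array as the floor.

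Atp6v0a4 was likewise detected on all 14 fat arrays, but on 1 liver and 2 muscle arrays only, and was at least 2.34-fold higher in fat than in liver and at least 2.69-fold higher than in muscle. Atp6v0d2 was not well above background on any muscle array and was at least 2.18-fold higher in liver than in muscle. The remaining isoforms known mainly from kidney, Atp6v1b1 and Atp6v1g3, were not well above background on any of the 42 arrays. Of the common subunits, Atp6v1g1 was higher in muscle than in liver by 1.52 and than in fat by 1.77. Atp6v0a1 was higher in muscle than in fat by 0.34 with its brightest probe, but its other 2 probes gave −1.77 and −1.96.

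Over all 42 arrays, the mean level of 15 ATP synthase genes (Atp5j lacked 1 array) followed other respiratory chain genes most closely among 19879 genes. Pearson's r was 0.994 for Ndufa5 (complex I) and Cox5a (cytochrome c oxidase), 0.994 for 1110020P15Rik, and 0.993 for Uqcrc2 (complex III) and Ndufb2 (complex I). For the mean of 20 V-ATPase genes, the nearest were Gng2 at 0.933, Rab3gap2 at 0.930, Duoxa1 at 0.926, Sdk1 at 0.924 and Gdpd5 at 0.922. The arrays share tissues, so these values are given without p. Within a tissue, the ATP synthase genes varied together over its 14 arrays, with a median r between members of 0.66 (liver), 0.68 (muscle) and 0.65 (fat). For the V-ATPase genes, the median r was 0.072, 0.034 and 0.28. The same 20 genes served in each tissue. Among them, Atp6v0a4 and Atp6v1c2 did not pass the filter on dim probes in liver or muscle, nor Atp6v0d2 in muscle. The part of such dim probes in these values was not tested.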

How the data were processed

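RNA of liver, muscle and fat was hybridised to 42 one-colour Agilent arrays. The authors extracted the scans with Agilent Feature Extraction (version 9.1 per the submitters' processing notes). The deposited scanner files hold processed spot intensity, already background-subtracted, and a deposited table of the authors' own normalised log2 values served as an alternative. The genes and lists were chosen with earlier results of these data known.

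Each array's 75th percentile of log2 processed intensity was subtracted, control and outlier spots were left out (1 member value, Atp5j in muscle, was missing and not imputed), and the brightest of a gene's probes was used. Over the arrays, 57.2 to 69.2% of probes were well above background, and replicates of a group correlated at 0.983 to 0.9915. The number of arrays limits the precision. A gene was tested if its probe stood well above background on 3 or more arrays of any group. A bound on a fold used, for each array, the higher of the lowest signal among probes well above background and the dim probe's own signal.

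Group means were fitted with limma 3.58.1 in R 4.3.3, on the 14 arrays of a tissue for genotype and age and on all 42 between tissues, and summarised in Python 3.11.15. The fit was tested on simulated data, where 85.5% of 200 genes changed by a log2 of 1 between genotypes in liver were recovered among 17572 genes, with 6 false calls. The simulated noise was independent, without slide or brightness effects. The change also exceeded every ATP synthase genotype difference in liver, so the recovery does not apply to those. By rule, array values could be given for members called for genotype or, where none was, the 2 with the lowest p per enzyme and tissue, for the 3 largest called age changes in each direction, and for called differences between tissues. Paralogues and the 3 largest differences in each direction were named between tissues. Values of Atp6v1g2 and Atp6v1e2 at 35 weeks, and of Atp6v1c1 in muscle, were chosen after they were seen.

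Alternatives were 1 fit over all 42 arrays, normexp background correction with quantile normalization, quantile normalization, median scaling, the authors' values, other filters and probe choices, the methods' two-way test, blocks for replicate number or slide, wild-type arrays only, and leaving out each array. Leaving out liver arrays with Mb or fat arrays with Ucp1 was chosen after seeing the data.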

Additional observations from a re-analysis of the deposited data

Results flagged for a closer look

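In groups of 4 arrays, 36 sets of values were searched for a single array far from the others, and chance gives such an array in about 1 in 20. Atp5k was at 4.66 in wild-type liver at 35 weeks, replicate 1, against 4.90 to 4.93 on the other arrays of the group. In Akt1+/- muscle at 35 weeks, replicate 3 was apart for 2 members, with Atp5j2 at 7.77 against 7.26 to 7.33 and Atp5k at 6.44 against 5.99 to 6.07. Akt1 was at 3.20 in Akt1+/- fat at 35 weeks, replicate 1, against 3.03 to 3.05.

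The genotype difference (Akt1+/- minus wild type) was tested between fat and liver and passed for 2 members. For Atp6v0d2, it was 1.62 higher in fat (limma adjusted p = 0.0254), and for Atp6v1g2 the fat minus liver value was −0.47 (limma adjusted p = 0.0318).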

How the results depend on the processing

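There were 3 or 4 arrays per group and 1 probe per gene. Slide was tied to genotype at 35 weeks, and scan day to age and, in fat at 35 weeks, to genotype. Calls near the threshold moved with the setting, and the causes were not tested. Dim probes near background limit the kidney and testis isoforms.

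Of the ATP synthase genes, 2 were called for genotype in liver. There were 6 with 1 fit over all arrays, 13 with median scaling and 4 with the two-way test. None was called with quantile normalization, no filter on dim probes, slide as a random block or without the livers that held Mb. For V-ATPase there, 0 became 3 with 1 fit, 2 with median scaling and 3 with normexp and quantile normalization. For age in liver, the 3 ATP synthase calls became 5 with 1 fit, 9 with median scaling, 5 with normexp and quantile normalization and 0 without the same livers, and the 3 V-ATPase calls became 6 with 1 fit and 10 with median scaling. For age in muscle, the 1 ATP synthase call became 0 with 1 fit, no filter, median scaling, and normexp and quantile normalization. For age in fat, the 2 ATP synthase calls became 4 with 1 fit, 5 with normexp and quantile normalization, 4 with the mean of probes, 1 with median scaling, 1 with no filter and 0 without the arrays with Ucp1. The 2 V-ATPase calls there became 4 with normexp and quantile normalization, the mean of probes and the two-way test, and 1 without the arrays with Ucp1. The change of the genotype difference with age, with 0 calls, gave 2 in liver and 4 in fat with 1 fit. The genotype difference between muscle and liver went from 0 calls to 1 with normexp and quantile normalization, and that between fat and liver from 2 to 1 with quantile normalization, 4 with median scaling, 1 with the mean of probes and 0 with slide as a random block.

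With the replicate number as a block, ATP synthase calls became 0 for genotype in liver, 0 for age in muscle and 1 for age in fat. Deviations of same-numbered arrays of the 2 genotypes correlated at −0.195 to 0.059 at 8 weeks and 0.090 to 0.408 at 35 weeks, where in liver and muscle every pair was over 0.1 and all 8 arrays of each tissue correlated best with their own number. At that age the number was also the position on the slide, so pairing and position cannot be told apart. No pair was over 0.1 at 8 weeks, so the block was kept as an alternative.

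Leaving out single arrays gave ranges of calls. For genotype, ATP synthase in liver gave 0 to 6, V-ATPase in liver 0 to 1 (1 without wild-type replicate 3 or Akt1+/- replicate 1 at 8 weeks or wild-type replicate 1 at 35 weeks) and ATP synthase in fat 0 to 1 (1 without wild-type replicate 1 at 8 weeks). For age, V-ATPase in liver gave 3 to 5 (5 without Akt1+/- replicate 3 at 35 weeks). ATP synthase in muscle gave 0 to 3, with 0 without wild-type replicate 1 or 2 or Akt1+/- replicate 2 or 3 at 8 weeks or wild-type replicate 1, 2 or 3 at 35 weeks, 2 without Akt1+/- replicate 1 at 35 weeks and 3 without Akt1+/- replicate 1 at 8 weeks. In fat, ATP synthase gave 1 to 2, with 1 without any Akt1+/- array at 8 weeks, any wild-type array at 35 weeks or Akt1+/- replicate 2, 3 or 4 at 35 weeks, and V-ATPase gave 1 to 3, with 1 without replicate 2 of either genotype at 8 weeks. The change with age gave 0 to 1 in liver (1 without Akt1+/- replicate 2 at 8 weeks) and 0 to 1 in fat (1 without Akt1+/- replicate 1 at 35 weeks). The genotype difference between fat and liver gave 1 to 4, with 1 without liver replicate 2 of either genotype at 8 weeks, wild-type liver replicate 4 at 35 weeks, or wild-type fat replicate 2 or Akt1+/- fat replicate 3 at 8 weeks, and 4 without Akt1+/- muscle replicate 3 at 35 weeks. That between muscle and liver gave 0 to 1, with 1 without Akt1+/- liver replicate 1 at 8 weeks, wild-type liver replicate 1 at 35 weeks or wild-type fat replicate 1 at 8 weeks.

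Single-gene values changed sign 16 times under another setting. With the mean of probes, Atp5j2 between genotypes in muscle was −0.011, Atp6v1h in muscle minus liver 0.10, Atp6v0a2 and Atp6v1g2 in fat minus liver 0.18 and 0.10, and Atp6v0a1 in muscle minus fat −1.10. With quantile normalization, fat minus liver was 0.0062 for Atp5g2, 0.21 for Atp6v0d1, 0.23 for Atp6v1e1 and 0.54 for Atp6v1g1, and with normexp added 0.22, 0.22 and 0.56 for the last 3. With wild-type arrays only, Atp6v1g2 in fat minus liver was 0.081. Atp6v1e1 in muscle minus fat was 0.14 with median scaling and 0.14 with wild-type arrays only, 0.026 without the arrays with Ucp1 and −0.035 to 0.027 with single arrays left out. The other tested single-gene values kept their direction under the alternatives run. Counting each gene under each setting apart from single arrays left out, a call was lost 62 times and gained 5 times.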
